A study of Mus musculus with 6 samples.

Results

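The genes described are the receptor family of interleukin 18 (IL-18) and interleukin 1 (IL-1) of the mouse, studied in natural killer (NK) cells, lymphocytes of innate immunity named for their killing of virus-infected and tumour cells. They were chosen by name, as 9 genes of the family, and each was read from the probe sets that the array's annotation pairs with exactly 1 gene symbol. Of the 9, 7 were measured among 19943 genes tested, namely Il18r1, Il18rap, Il18bp, Il1r2, Il1rl2, Il1rap and Sigirr, each by 1 probe set. Il1r1 and Il1rl1 were not analysed here.

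Total RNA of 6 cell preparations was hybridised to 6 Affymetrix arrays, 3 for each of the groups compared. The labels describe the IL-18 generated cells as follows. They had been enriched on the surface antigen NK1.1, kept overnight in medium with 300 IU of IL-2 and 25 ng/ml of IL-18, and sorted as live NK1.1 positive, CD3 negative, CD11b negative, c-kit positive cells. Unstimulated cells were sorted as live NK1.1 positive, CD3 negative, CD11b positive, c-kit negative cells. The growth protocol stands on both groups' labels, so whether unstimulated cells were cultured or received IL-2 is not clear from them, and the sources used here give neither the strain nor the age of the mice. In every difference below, the parts of IL-18, IL-2, culture and gate cannot be told apart. In these bulk samples, fewer cells of a type and less RNA per cell cannot be told apart either. The values are read as log2 differences from the median of a probe set over the 6 arrays, although the log base is not stated. Such a value shows how arrays differ for a gene, and it holds no expression level, so levels cannot be compared between genes and the presence of NK cell markers cannot be checked.

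IL-18 signals through a receptor of 2 chains, a ligand-binding chain (IL-18R alpha, encoded by Il18r1) and an accessory chain that brings in the signal (IL-18R beta, encoded by Il18rap). The other receptors of the family are built alike, with extracellular immunoglobulin domains and a cytoplasmic TIR domain that recruits MyD88 and IRAK kinases and leads to NF-kB and MAP kinases. Soluble or signalling-deficient members, the decoys, take ligand away. NK cells are among the cells best known for answering IL-18, which together with IL-12 drives them to make interferon gamma.

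Of the 7 measured genes, those for the 2 IL-18 receptor chains fell by about the same amount in IL-18 generated cells, Il18r1 with a log2 change of -2.04 ± 0.14 (SE, n = 3 per group; every later change has the same n) and Il18rap with -2.02 ± 0.11. Il1rl2, the receptor chain for the IL-36 cytokines, moved the other way and rose by 1.19 ± 0.22. The accessory chain Il1rap and the decoy receptor Il1r2 fell by less, and the soluble IL-18 antagonist Il18bp rose by 0.26 ± 0.08. Sigirr, a family member that dampens signalling, did not pass the test. In all, 2 genes rose, 4 fell and 1 did not pass at an adjusted p below 0.05 from limma over all genes, against 36.4% of all genes tested that were called in either direction, 19.7% higher and 16.7% lower. With a log2 change of at least 1 as well, 3 of the 7 were called (Il18r1, Il18rap and Il1rl2), 1 higher and 2 lower, against 6.86% of all genes, 3.62% higher and 3.24% lower. The groups' arrays did not overlap for 6 of the 7, where 48.6% of all genes tested had groups that did not overlap. The median log2 change of the 7 was -0.27, beside -0.06 over all genes.

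Because both chains of the IL-18 receptor and Il1rl2 changed most and lie in 1 gene cluster on chromosome 1, the sequence just before their annotated starts is shown (RefSeq, GRCm38.p6, plus strand, 5′ to 3′). For Il18r1, which has 3 listed starts, it is the stretch of 133 bases between the end of the neighbouring gene Il1rl1 and the first start, chr1:40465419-40465551. For Il18rap it is the 250 bases at chr1:40515112-40515361, and for Il1rl2 the 250 bases at chr1:40324339-40324588. Capitals mark matches to the 6 motifs searched.
Il18r1: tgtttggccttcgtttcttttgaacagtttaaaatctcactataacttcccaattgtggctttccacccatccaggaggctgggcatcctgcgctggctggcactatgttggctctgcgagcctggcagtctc
Il18rap: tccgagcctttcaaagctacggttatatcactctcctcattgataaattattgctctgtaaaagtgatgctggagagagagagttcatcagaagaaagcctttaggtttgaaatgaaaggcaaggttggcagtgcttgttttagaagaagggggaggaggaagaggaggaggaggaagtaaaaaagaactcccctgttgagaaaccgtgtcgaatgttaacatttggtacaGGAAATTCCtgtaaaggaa
Il1rl2: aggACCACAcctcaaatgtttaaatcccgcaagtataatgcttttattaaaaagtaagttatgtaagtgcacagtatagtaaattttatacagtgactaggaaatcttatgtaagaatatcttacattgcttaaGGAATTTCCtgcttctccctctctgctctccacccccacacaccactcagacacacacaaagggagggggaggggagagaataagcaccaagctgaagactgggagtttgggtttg
The motifs, searched on both strands and chosen with the sequences in view, were GGG and CC parted by 5 free bases as well as GGNNNTTCC for NF-kB, TTCNNNGAA for STAT factors, TGANTCA for AP-1, TCACAC for T-box factors and TGTGGT for RUNX factors. Some matches to the NF-kB spellings can overlap each other. The stretch before Il18rap held GGAAATTCC, 19 to 11 bases before the start, which fits the second NF-kB spelling. The stretch before Il1rl2 held GGAATTTCC, the reverse complement of those letters, 116 to 108 bases before its start, and ACCACA, the RUNX letters on the other strand. GGNNNTTCC occurred in the 250 bases before 15.7% of the 32851 listed starts, and TGTGGT in 14.0%. None of the 6 spellings occurred in the 133 bases before Il18r1, a length in which GGNNNTTCC occurred before 9.1% of starts. The first NF-kB spelling was in none of the stretches shown. It occurred before 33% of starts in 133 bases and before 45.8% in 250 bases. So letters of the second NF-kB spelling stood before 1 gene that fell and 1 that rose. A match is a description of these letters and not a binding site, and the lack of one says only that the letters are not in this window.

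Il18r1, the ligand-binding chain, lay at -1.32, -1.09 and -0.79 on IL-18 generated arrays 1, 2 and 3 and at 0.79, 1.22 and 0.89 on the unstimulated arrays. The groups were separated by a gap of 1.58 between the highest IL-18 array and the lowest unstimulated one, wider than the spread within either group. The fall was 4.10-fold, with a 95% interval from -2.36 to -1.71 on the log2 scale and a limma adjusted p of 1.96e-06. It ranked 179th from the lowest among the 19943 changes.

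Il18rap, the accessory chain, lay at -1.20, -1.10 and -0.82 on the IL-18 arrays and at 0.82, 1.15 and 0.96 on the unstimulated ones. Here too array 3 was the highest of the IL-18 group and array 2 the highest of the unstimulated group, and the gap between groups was 1.65. The fall was 4.05-fold, with a 95% interval from -2.27 to -1.76 and a limma adjusted p of 4.76e-07, and it ranked 184th from the lowest.

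**Figure D1:**
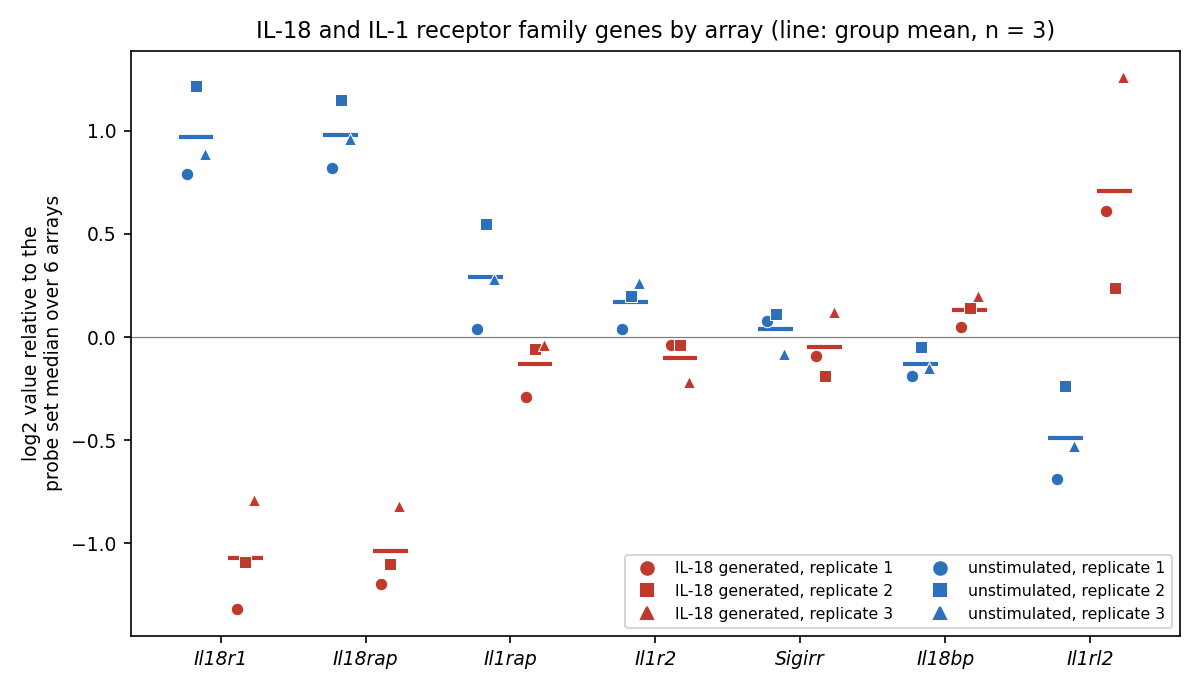
Values of the 7 measured receptor family genes on each array, as log2 relative to the probe set's median over 6 arrays (vertical axis), with red for IL-18 generated and blue for unstimulated arrays, a marker shape for each replicate number and a line for each group mean (n = 3). Il18r1 and Il18rap lie near -1 with IL-18 and near 1 without, Il1rl2 lies the other way round with a wide spread among the red points, and the groups of Sigirr overlap.

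Both chains followed each other closely across arrays. The value of Il18r1 minus that of Il18rap was -0.12, 0.01 and 0.03 on the IL-18 arrays and -0.03, 0.08 and -0.07 on the unstimulated ones, so the groups overlapped in this difference. The changes of the chains differed by -0.02 ± 0.07 (SE), which was within the spread between arrays (exact permutation test over arrays, two-sided p = 0.8, where 3 against 3 arrays allow no p below 0.1). Over the 6 arrays, each gene centred on its mean, the gene with the smallest root mean square difference from Il18r1 among the 19942 others was Il18rap, at 0.0678. Borcs7, a subunit of a complex that positions lysosomes, followed at 0.0839 and Hsd11b1, an enzyme that activates glucocorticoids, at 0.0929. Nearest to Il18rap were Hsd11b1 at 0.0586, Il18r1 at 0.0678 and Tbx21, which encodes the transcription factor T-bet of type 1 lymphocytes, at 0.0763. Tbx21 changed by -1.99 ± 0.10, close in size to both receptor chains. These distances are descriptions over 6 arrays in 2 groups and reflect mostly the size of the difference between the groups.

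Markers of other cells that the gates could hold also differed between the groups; of all genes, 36.4% were called, 19.7% higher and 16.7% lower. All 8 measured monocyte and macrophage markers fell, with list means from -1.42 to -1.22 on the IL-18 arrays and from 1.15 to 1.77 on the unstimulated arrays, Lyz2 most at -7.16 ± 0.15 and then Csf1r at -4.38 ± 0.18. All 11 neutrophil markers fell (list means from -1.28 to -1.03 against 1.17 to 2.42), Ngp with -5.66 ± 0.32 and Cxcr2 with -3.65 ± 0.31. Of 10 basophil and mast cell markers, cells that also respond to IL-18, 8 fell (means from -1.89 to -0.50 against 0.51 to 1.71) and 2 did not pass. Cpa3 fell with -4.26 ± 0.75 and Prss34 with -4.26 ± 0.72. On IL-18 arrays 1, 2 and 3, Cpa3 lay at -3.83, -0.55 and -3.71 and Prss34 at -3.45, -0.55 and -3.47, so array 2 stood apart. The call of Cpa3 ended with limma's robust option (adjusted p 0.0537). Both calls also ended with a variance trend in limma (adjusted p 0.976 and 0.0676), which has no expression level to follow in these values. All 10 NK cell markers fell as well (means from -0.68 to -0.50 against 0.46 to 0.70), Prf1 with -2.17 ± 0.13 and Klrb1c with -2.03 ± 0.11. Of 7 dendritic cell markers 6 fell and 1 rose, and of 7 B and plasma cell markers 6 fell and 1 did not pass. Helper-like innate lymphoid cells, relatives of NK cells, gave a mixed list. Of 9 measured markers 3 rose, 2 fell and 4 did not pass. List means ran from 0.10 to 0.21 on the IL-18 arrays and from -0.19 to -0.08 on the unstimulated ones, but the median change was -0.08. Rora, a transcription factor of these cells, rose by 2.57 ± 0.09, the IL-7 receptor chain Il7r by 0.79 ± 0.15 and the cytokine gene Il13 by 0.23 ± 0.08, while the receptor genes Il17rb and Il23r fell with -0.33 ± 0.11 and -0.26 ± 0.08. Rora and Il7r kept their calls without any 1 array, and the other 3 lost theirs in 4 or 5 of those 6 fits (limma adjusted p up to 0.158 for Il13, 0.113 for Il17rb and 0.105 for Il23r). The part of these cells in the changes of the receptor genes was not tested.

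The genes of the sort gates were read as a check of the labels. As gated, Kit (c-kit) rose by 2.79 with IL-18 and Itgam (CD11b) fell with -5.32. Cd3e rose by 1.26, although both gates were CD3 negative. Klrb1c (NK1.1) fell with -2.03, although both gates were NK1.1 positive. The typical difference between 2 arrays, as a root mean square over probe sets, was 0.168 to 0.243 within groups and 0.548 to 0.634 between them. The design text calls the preparations independent, and p-values measure the spread between these arrays only.

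Il18bp encodes the secreted IL-18 binding protein, which catches IL-18 before it reaches its receptor. It lay at 0.05, 0.14 and 0.20 on the IL-18 arrays and at -0.19, -0.05 and -0.15 on the unstimulated arrays. The groups did not overlap, but the gap between them was only 0.09. The rise was 1.20-fold, with a 95% interval from 0.08 to 0.43 on the log2 scale and a limma adjusted p of 0.0258. It lost its call without IL-18 replicate 2 or 3 (adjusted p 0.0811 and 0.0982) and without unstimulated replicate 1 or 3 (0.0844 and 0.0692).

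Il1rl2 encodes the receptor chain that binds IL-36 cytokines and pairs with the IL-1 receptor accessory protein. Its values were 0.61, 0.24 and 1.26 on the IL-18 arrays and -0.69, -0.24 and -0.53 on the unstimulated arrays. The groups did not overlap, although the IL-18 arrays were spread more widely than the gap of 0.49 between groups, array 3 being the highest and array 2 the lowest. The rise was 2.28-fold, with a 95% interval from 0.71 to 1.67 and a limma adjusted p of 0.00135, and it ranked 460th from the highest. Without IL-18 replicate 3 the change was 0.91 and still passed. Of 9 T cell markers 4 rose and 5 did not pass, beside 19.7% of all genes that rose. The 4 were the CD3 chains Cd3d, Cd3e and Cd3g and the T cell receptor adaptor Trat1. On IL-18 arrays 1, 2 and 3, Cd3d lay at 0.55, 0.36 and 1.01 and Cd3g at 0.83, 0.45 and 1.30, in the order of Il1rl2. Cd3e lay at 0.30, 0.57 and 1.29 and Trat1 at 1.05, 0.38 and 0.67, in other orders. The order of Il1rl2 was not particular to T cell genes. In the pathway lists below, Casp4 (0.58, 0.35 and 0.73) and Il12rb1 (0.68, 0.37 and 1.12) had it too, while Aim2 (0.54, 0.71 and 0.89) had another. The T cell list means ran from 0.17 to 0.45 on the IL-18 arrays and from -0.30 to -0.08 on the unstimulated ones. The median change of the list was only -0.02. The 5 that did not pass lay below 0, Cd4 at -0.02, Cd5 at -0.09, Cd6 at -0.06, Cd8a at -0.26 and Cd8b1 at -0.15. The part of T cells in the change of Il1rl2 was not tested.

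Il1rap encodes the accessory protein shared by the receptors for IL-1, IL-33 and IL-36. It lay at -0.29, -0.06 and -0.04 on the IL-18 arrays and at 0.04, 0.55 and 0.28 on the unstimulated arrays. Unstimulated array 2 was the highest, and the groups were only 0.07 apart at their nearest arrays. The fall was 1.34-fold, or -0.42 ± 0.13, with a 95% interval from -0.70 to -0.14 and a limma adjusted p of 0.0247. The call ended without IL-18 replicate 1 (adjusted p 0.0902), unstimulated replicate 2 (-0.29, adjusted p 0.0596) or unstimulated replicate 3 (0.0618), and with each array centred on its median (0.0513).

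Il1r2 encodes the decoy receptor that binds IL-1 and, for want of a TIR domain, does not signal, and it is known from neutrophils and monocytes. Its values were -0.04, -0.04 and -0.22 on the IL-18 arrays and 0.04, 0.20 and 0.26 on the unstimulated arrays. The gap between groups was 0.08, about as small as for Il1rap. The fall was 1.20-fold, or -0.27 ± 0.09, with a 95% interval from -0.46 to -0.07 and a limma adjusted p of 0.0365. Its call ended without any 1 of the arrays except unstimulated replicate 1 (adjusted p from 0.0555 to 0.141 for the other 5), and with quantile normalization (0.0511) or centred arrays (0.0626). The neutrophil and monocyte lists had median changes of -2.88 and -2.21, and their part in this change was not tested.

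Sigirr encodes a receptor with a single immunoglobulin domain that restrains IL-1 and IL-18 signalling. It lay at -0.09, -0.19 and 0.12 on the IL-18 arrays and at 0.08, 0.11 and -0.08 on the unstimulated ones. The groups overlapped, with IL-18 array 3 the highest of all 6. The change of -0.09 ± 0.10 did not pass (limma adjusted p 0.50) with a 95% interval from -0.31 to 0.13.

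Ordered by their changes, from the largest fall to the largest rise, the genes ran Il18r1, Il18rap, Il1rap, Il1r2, Sigirr, Il18bp and Il1rl2. Neighbours in that order were compared by their difference within each array, in 6 exact two-sided permutation tests whose smallest possible p is 0.1. Apart from Il18r1 and Il18rap, the pairs were picked by the same values that were then tested, so these comparisons are descriptions. In these exact tests the groups overlapped for Il18r1 against Il18rap, Il1rap against Il1r2 (p = 0.4) and Il1r2 against Sigirr (p = 0.5). No difference beyond the spread was seen there, and so few arrays cannot show that there is none. The groups did not overlap for Il18rap against Il1rap, whose changes differed by 1.60 ± 0.09, for Sigirr against Il18bp, by 0.35 ± 0.10, or for Il18bp against Il1rl2, by 0.93 ± 0.29. Each of those reached the smallest p of 0.1 (0.2 after Benjamini-Hochberg adjustment over the 6).

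**Figure D2:**
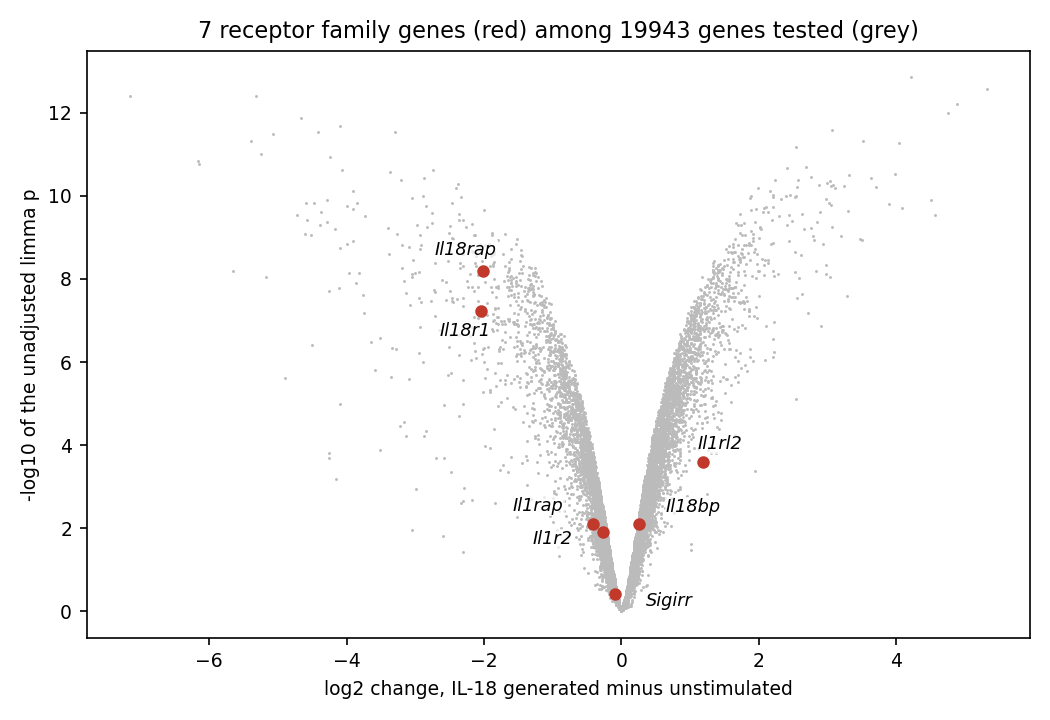
Log2 change of every gene tested (horizontal axis, IL-18 generated minus unstimulated) against -log10 of its unadjusted limma p (vertical axis), with the 19943 genes in grey and the 7 receptor family genes in red. Il18r1 and Il18rap lie beside each other at about -2, Il1rl2 alone lies to the right at 1.19, and the other 4 changed by less than 0.5 in size.

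Of the 9 family genes, 6 follow each other on chromosome 1 in the reference gene table, with no other protein-coding gene between them, in the order Il1r2, Il1r1, Il1rl2, Il1rl1, Il18r1 and Il18rap. The 4 measured genes of this cluster changed in both directions, Il1r2 with -0.27, Il1rl2 with 1.19, Il18r1 with -2.04 and Il18rap with -2.02, and the neighbouring last pair had the like changes. The 3 nearest measured genes on either side changed little. Next to Il1r2, Map4k4, a kinase, rose by 0.29 ± 0.08, while Rfx8 (0.04) and Creg2 (-0.16) did not pass. Beyond Il18rap, the sodium-proton exchanger Slc9a4 did not pass, with -0.16 ± 0.09, Slc9a2 of the same family rose by 0.33 ± 0.09 and the transporter-like Mfsd9 fell by 0.24 on the log2 scale. Map4k4 lost its call without IL-18 replicate 1 or 3 or unstimulated replicate 1 (limma adjusted p 0.0533, 0.0546 and 0.0502) and Slc9a2 without IL-18 replicate 1 (0.0765). Mfsd9 lost its call under both other scalings (limma adjusted p 0.063 and 0.0635) and without any 1 of IL-18 replicates 1 to 3 or unstimulated replicate 2 (from 0.0542 to 0.0816). None of these 6 flanking genes changed by more than 0.33 in size, and 3 of the 4 measured cluster genes changed by more than 1.

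**Figure D3:**
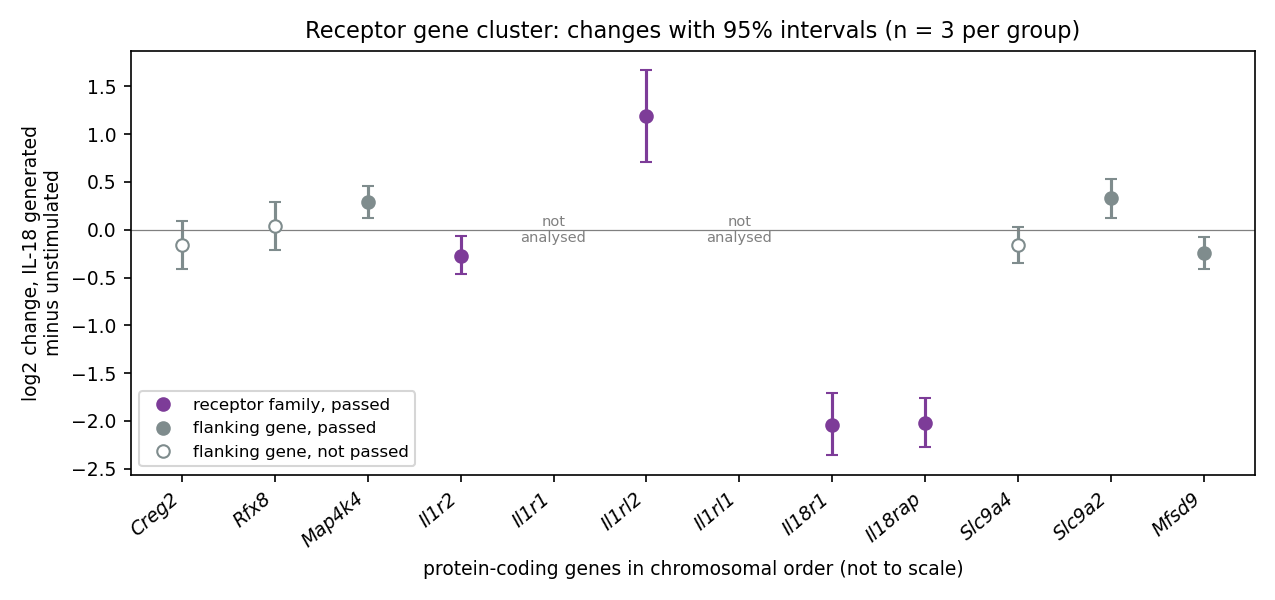
Log2 change (IL-18 generated minus unstimulated, n = 3 per group) of the genes of the receptor cluster in purple and of the 3 measured genes on each side in grey, in chromosomal order and not to scale, with 95% intervals. Filled points passed at an adjusted p below 0.05, Il1r1 and Il1rl1 were not analysed, and the large changes, 1 rise and 2 falls, lie within the cluster.

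The ligands of the family and their antagonists were looked up as a list, as were the pathway genes below. Of 10 measured, 3 fell and the other 7 missed the threshold. Their median was -0.11, beside 36.4% called and a median of -0.06 over all genes. Il1b, the inflammatory IL-1 beta, lay at -0.65, -0.73 and -0.67 on the IL-18 arrays and at 1.08, 0.65 and 1.50 on the unstimulated arrays, a change of -1.76 ± 0.17 (limma adjusted p 1.67e-05). Il1rn, the IL-1 receptor antagonist, fell with -0.42 ± 0.09, and Il18 itself with -0.42 ± 0.11. Il18 lay at -0.07, -0.18 and -0.15 with IL-18 and at 0.07, 0.28 and 0.50 without, so its groups did not overlap. The ligands of Il1rl2 on the list, the IL-36 genes Il1f6, Il1f8 and Il1f9, were among those that did not pass. So were the 2 other receptor genes of the family, Il1rapl1 and Il1rapl2, with changes of -0.03 and -0.06. Il1b, Il1rn and Il18 are also expressed by monocytes, whose markers fell in the same arrays (median -2.21), and the part of those cells was not tested.

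Genes that process IL-1 beta and IL-18 into their active form, the inflammasome sensors, adaptor and caspases, split evenly. Among 9 genes, 4 rose, 4 fell and 1 missed the threshold. Over all genes 19.7% rose and 16.7% fell. The median was -0.18 and the mean 0.05. The DNA sensor Aim2 rose by 1.34 ± 0.10, Casp4 by 1.08 ± 0.11, the NLRP3 partner kinase Nek7 by 0.97 ± 0.08 and Casp1, the caspase that cleaves IL-18, by 0.50 ± 0.09. The adaptor Pycard fell with -1.27 ± 0.08, the sensor Nlrp3 with -0.97 ± 0.11, the pore former Gsdmd with -0.63 ± 0.08 and the sensor Nlrc4 with -0.34 ± 0.08. Limma adjusted p for these 8 was at most 0.00607.

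Of 17 measured genes of signalling next to the receptor, 8 rose, 4 fell and 5 missed the threshold (median 0.22), beside 19.7% higher and 16.7% lower over all genes. Myd88, the adaptor that binds the TIR domains of both receptor chains, lay at -0.40, -0.43 and -0.44 on the IL-18 arrays against 0.40, 0.42 and 0.45, and fell with -0.84 ± 0.07 (limma adjusted p 5.46e-06). Map2k6, a kinase that activates p38, fell with -0.91 ± 0.10, p38 alpha itself (Mapk14) with -0.40 ± 0.08 and the I-kappa-B kinase gene Ikbkb with -0.44 ± 0.09. Map2k3, the other kinase upstream of p38, rose by 1.01 ± 0.07 and the MyD88 partner Irak2 by 0.60 ± 0.11. Genes for both p38-activating kinases thus moved in opposite directions, and their arrays did not overlap for either.

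Of 6 measured NF-kB genes, 3 rose and the other 3 missed the threshold (median 0.53), with 36.4% of all genes called in either direction and 19.7% higher. Nfkb2 rose by 1.30 ± 0.10, its partner Relb by 0.77 ± 0.08 and the atypical I-kappa-B protein Nfkbiz by 0.90 ± 0.14. Of 11 genes that restrain the pathway, 7 rose, 2 fell and 2 missed the threshold (median 0.63), against the same shares of all genes. Zc3h12a, an RNase that degrades cytokine transcripts, rose by 1.76 ± 0.08, the deubiquitinase gene Otulin by 1.40 ± 0.08 and Irak3, an IRAK kinase without activity, by 0.52 ± 0.08. Nfkbie fell with -0.41 ± 0.09 and the phosphatase Dusp1 with -1.84 ± 0.46. Dusp1 was widely spread among the unstimulated arrays, at 2.08, 0.13 and 2.42, and its call ended with a variance trend (limma adjusted p 0.183), with the robust option (0.118) and without unstimulated replicate 1 (0.0518).

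Of 8 genes of the IL-12 axis, which acts beside IL-18 on NK cells, 3 rose and 5 fell, where 19.7% of all genes rose and 16.7% fell. The median of the 8 was -0.46 and the mean 0.03. Ifng, the product of both signals, lay at 0.92, 0.86 and 1.38 on the IL-18 arrays and at -0.89, -1.37 and -0.86 on the unstimulated ones and rose by 2.10 ± 0.16. The receptor chain Il12rb1 rose by 1.21 ± 0.16, the kinase Jak2 by 0.94 ± 0.10. Tbx21 fell as given above, Eomes, the other T-box factor of NK cells, with -0.58 ± 0.11, Tyk2 with -0.53 ± 0.11, Stat4 with -0.51 ± 0.11 and the second chain Il12rb2 with -0.41 ± 0.12. The call of Il12rb2 ended without IL-18 replicate 1 or 2 (limma adjusted p 0.0618 and 0.0728).

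**Figure D4:**
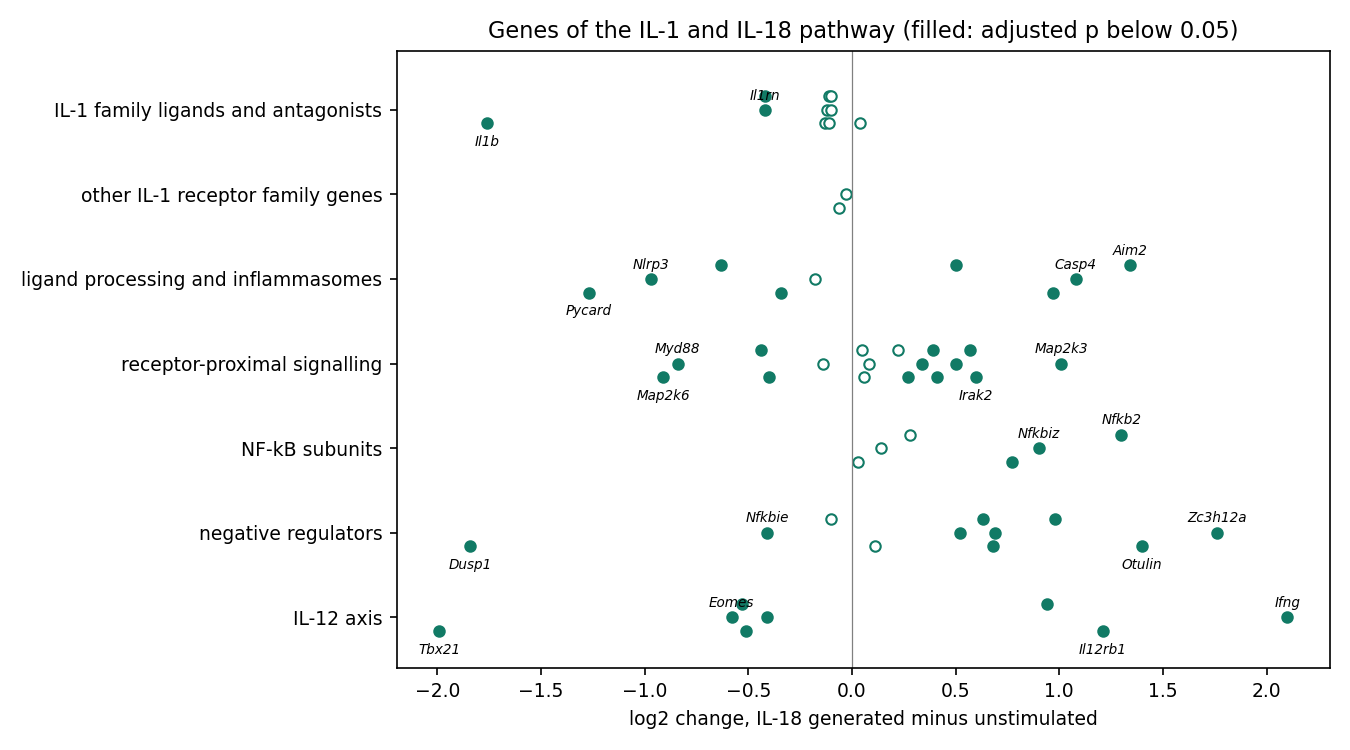
Log2 change (horizontal axis, IL-18 generated minus unstimulated) of the measured genes of the 7 pathway lists, 1 point per gene, filled where the limma adjusted p was below 0.05; the small vertical shifts only part the points. Negative regulators and NF-kB genes lie mostly to the right, inflammasome genes on both sides, and apart from Il1b, Il1rn and Il18 the ligands lie near 0.

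The receptor genes differed in how often they kept their call. Il18r1, Il18rap and Il1rl2 passed under all 15 alternatives, with changes from -2.17 to -1.90, from -2.13 to -1.88 and from 0.91 to 1.42. These alternatives are not independent. Each family gene has 1 probe set, so the fits on genes with 1 probe set and on all probe sets reused its values. Sigirr passed under none of its 15. Leaving out 1 array ended the call of Il18bp in 4 of 6 cases, of Il1r2 in 5 and of Il1rap in 3, and none of these changed sign.

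**Figure D5:**
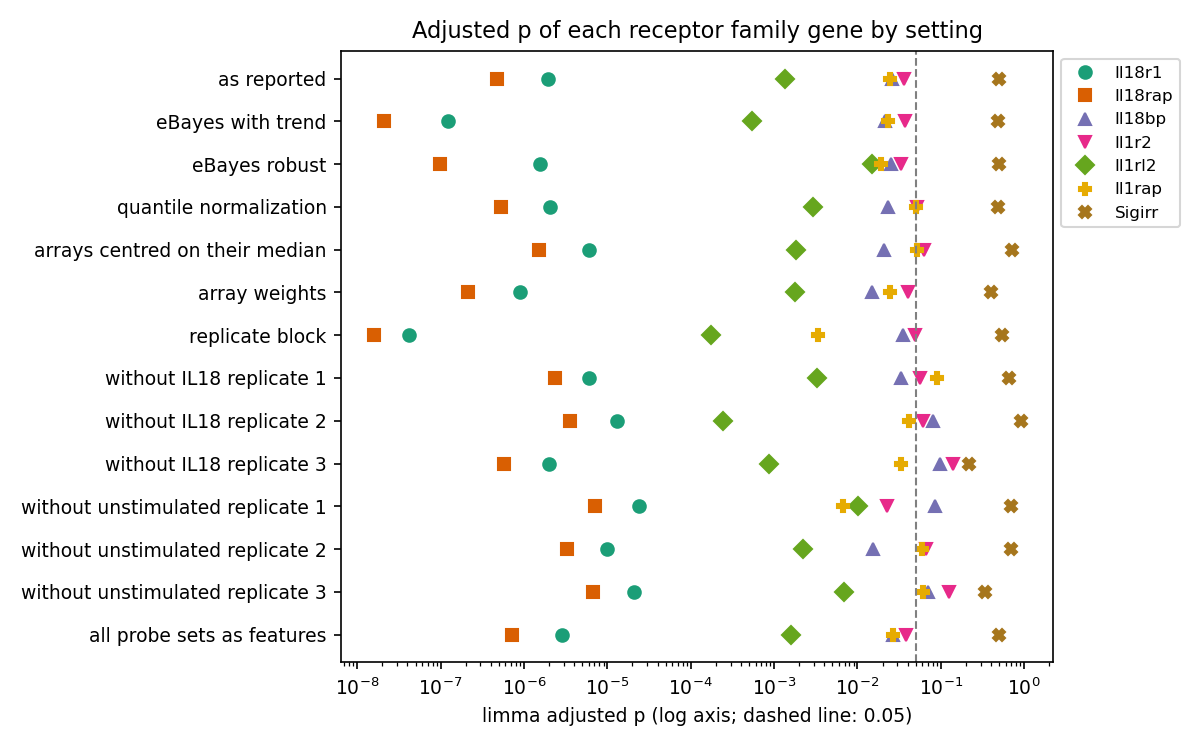
Limma adjusted p (horizontal log axis, dashed line at 0.05) of each receptor family gene as reported and under 13 of the 15 alternatives (vertical axis), leaving out the test against a log2 change of 0.5 and the fit on genes with 1 probe set. Il18rap, Il18r1 and Il1rl2 stay left of the line throughout, Sigirr stays right of it, and Il18bp, Il1r2 and Il1rap fall on either side.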

How the data were processed

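The authors deposited values, read here as log2, that had been centred on each probe set's median, for 28815 probe sets on 6 one-colour arrays. No software, summarization or normalization method is given in the sources used here. The log2 scale is not stated and was read from the values. Each probe set's median over the arrays was within 5e-07 of 0. Between arrays, 1 probe set spanned 7.77, which would exceed a scanner's range on a log10 scale. That span cannot tell log2 from a natural log, so the fold changes rest on log2 as an assumption. Centred values have no level, so no filter on dim genes or background correction was possible. The 21788 probe sets with 1 symbol in the platform annotation gave 19943 genes (mean of a gene's probe sets). The contrast was fitted in R 4.3.3 by limma 3.58.1 (lmFit, eBayes, no covariate, all 6 arrays), with Benjamini-Hochberg adjustment over all genes; "rose" and "fell" mean an adjusted p below 0.05. Intervals are limma's 95% intervals. The scripts were tested on simulated data. The genes, lists and motifs were chosen with earlier results of these data known. Named genes are the family members, the 3 genes nearest to each IL-18 receptor chain, the cluster's flanking genes and the sort genes. Up to 2 largest increases and decreases among passing genes of each list were named as well. The lists of dendritic cells and of B and plasma cells are exceptions, given as counts only. Further list members were named after their values were seen, to complete counts of up to 5. So were Irak3, Cd3d, Trat1 and the IL-36 and orphan receptor genes. Of 150 list genes 139 were measured, IL-36 genes under their older symbols. Promoter sequences were found for 8 of the 9 family genes. Alternatives covered limma's variance options, scaling, array weights, features, the replicate block, a test against a minimum change and leaving out each array. The variance trend is meant to follow a gene's level, which centred values lack, so the fit with it says little here. The number of arrays limits the precision.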

Additional observations from a re-analysis of the deposited data

How the results depend on the processing

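Il18r1, Il18rap and Il1rl2 kept their call and direction under all 15 alternatives, which were not independent of each other, and Sigirr did not pass under any. With each array centred on its median the family genes that fell were 2 instead of 4, since Il1r2 (-0.23) and Il1rap (-0.39) no longer passed, and with quantile normalization Il1r2 (-0.25) did not pass. Tested against a log2 change of at least 0.5 with limma's treat, 1957 genes were called instead of 7267, 1093 higher instead of 3935 and 864 lower instead of 3332; this test asks for a larger change by construction. Of the family 3 were then called, 1 higher and 2 lower, and Il18bp (0.26), Il1r2 (-0.27) and Il1rap (-0.42) were not. Leaving out 1 array at a time left 3 to 5 family genes called, 1 to 2 higher and 2 to 4 lower. Changes ran from 0.22 to 0.30 for Il18bp, from -0.33 to -0.21 for Il1r2 and from -0.54 to -0.29 for Il1rap. The lost calls are given beside those genes. Fewer arrays can by themselves raise the p, and most of these fits called fewer genes in all, 6083 to 6388. Without unstimulated replicate 2, which had the lowest array weight (0.46), 8586 were called instead of 7267. Il1r2 and Il1rap lost their calls in that fit all the same.

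The groups share replicate numbers. Deviations from the group means correlated at 0.238, 0.00738 and -0.02 for same-numbered arrays and from -0.293 to 0.248 for the others. With 3 arrays per group these correlations are bound together, so they cannot decide whether same-numbered samples were paired. With the replicate block 7279 genes were called instead of 7267, 3949 higher and 3330 lower, and 6 family genes were called, 2 higher and 4 lower, with Il1r2 at an adjusted p of 0.0494. Of 57 other genes named as passing, 47 passed under all of up to 13 alternatives and 10 lost the call in at least 1, and 0 changed direction. Quantile normalization and centring each moved the median change of all genes by less than 0.1. Background correction and filters on dim probe sets were not run, because centred values hold no level.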
